A study of Homo sapiens with 64 samples.

Results

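The 32 genes described here encode the folding machinery of the endoplasmic reticulum (ER) and the sensors and effectors of the unfolded protein response. They were chosen by gene symbol, and all 32 symbols matched a row of the 54127 Ensembl genes counted in each of 64 RNA sequencing libraries. By role they divide into 11 chaperones and co-chaperones, 4 protein disulfide isomerases, 5 sensors, transcription factors and regulators, 7 genes of ER-associated degradation and 5 genes of translocation, glycosylation and ER export. The libraries came from 6 human colorectal cancer cell lines (HT55, SW948, RKO, SW48, DLD1 and HCT15) grown as non-adherent spheroids with bFGF and EGF. For 48 libraries, all cells carried CFSE, a fluorescent dye that is diluted at each division, and were sorted after 6 days into label-retaining cells (LRCs), which had kept the dye, and cycling cells (labeled BULK, here non-LRCs), with 4 replicates per line and population. The other 16 libraries carried the label DLD1 and were unsorted controls, CFSE-labeled or given DMSO without dye, with 4 replicates each on day 1 and on a later day that the sample labels give as day 5 and the series design as day 6. Each group is thus 1 established line. The study's methods describe the replicates as biological, the labels do not say whether they were separate cultures, and p-values measure the spread between these samples. In both sorted populations of DLD1 and HCT15 and in both CFSE control groups, the counts of replicates 1 and 2 differed less from each other than from those of replicates 3 and 4. Among these groups, the gap was widest in the CFSE day 1 controls. Replicates 3 and 4 likewise lay closer to each other, so the 4 replicates there were not evenly spread.

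Proteins that enter the secretory pathway are threaded into the ER through the SEC61 channel, glycosylated, and folded by chaperones and disulfide isomerases. When unfolded proteins build up, the chaperone BiP (HSPA5) leaves the sensors IRE1α (ERN1), PERK and ATF6. IRE1α then splices XBP1 mRNA, ATF6 is cleaved into a transcription factor, and PERK slows translation and induces ATF4 and CHOP, after which GADD34 (PPP1R15A) restores translation. The targets of these arms include further chaperones and the machinery that returns misfolded proteins to the cytosol for degradation. The response is prominent in the secretory cells of the intestinal epithelium.

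Sequencing depth was 12237225 to 20913455 counts in genes per library, with a median of 15063858, and the 32 genes took 0.855% to 1.30% of them. The 48 sorted libraries each correlated best with the mean of their own line over 16899 genes. All 16 control libraries labeled DLD1, however, correlated better with sorted HCT15 non-LRCs (r = 0.950 to 0.995) than with sorted DLD1 non-LRCs (r = 0.926 to 0.965). These are correlations across genes, which are not independent replicates. The 32 genes do not all bear on this. WFS1, an ER membrane protein chosen here after its values were seen, lay at 138 to 221 CPM (read counts scaled to the size of each library) in sorted DLD1 non-LRCs, at 33.6 to 39.8 CPM in HCT15 non-LRCs and at 30.7 to 54.7 CPM in the controls. XBP1, by contrast, had nearly equal means in the sorted non-LRCs of DLD1 (169 CPM) and HCT15 (174 CPM), and SEC61A1 had means of 548 to 682 CPM in the control groups, above both DLD1 (321 CPM) and HCT15 (410 CPM). DLD1 and HCT15 are known to derive from the same tumor, and which label holds cannot be told here, so the controls are called the libraries labeled DLD1 and were compared only among themselves. In 9 libraries the nearest group mean was another group of the same experiment: SW948 LRC replicate 4 lay with SW948 non-LRCs (r = 0.9986, against 0.9939 with its own group), DMSO day 1 replicate 4 lay with the later DMSO group (0.9958 against 0.9805), and CFSE day 1 replicates 3 and 4 both lay with DMSO day 1. The other 5 were non-LRC replicate 2 and LRC replicate 4 of HCT15, replicate 2 of both populations of HT55, and LRC replicate 2 of SW48. Counts are given with and without SW948 LRC replicate 4 and DMSO day 1 replicate 4. For the other libraries, the closing section gives the range of counts when single libraries were left out. Epithelial markers were present in 5 lines, although VIL1 averaged only 3.33 CPM in SW48 non-LRCs. In RKO non-LRCs they were mixed. CDH1 averaged 0.90 CPM, KRT19 0.793 CPM and VIL1 0.276 CPM there, while KRT18 averaged 120 CPM, KRT8 73.0 CPM, CDX2 20.2 CPM and EPCAM 15.8 CPM. Of the non-epithelial markers, CD68 averaged 1054 CPM in RKO non-LRCs, against 2.81 to 48.6 CPM in non-LRCs of the other lines. PTPRC averaged 15.1 CPM in SW48 non-LRCs and at most 0.0159 CPM in those of the other lines. Since these are bulk libraries, fewer cells of a type and less RNA per cell cannot be told apart.

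Retention of the dye was the first comparison. Across the 6 lines, with the line as a term, PPP1R15A and DNAJB9 had the largest differences among the members higher in LRCs, and SDF2L1, CALR and CRELD2 among those lower. Of the 32 genes, 15 passed an adjusted p of 0.05 (edgeR quasi-likelihood test, Benjamini-Hochberg over 16603 genes), 8 higher and 7 lower in LRCs, beside 22.9% of all genes tested (12.2% higher and 10.7% lower). The median log2 fold change of the 32 genes was 0.016, and that of all genes 0.015. With the replicate number, which paired the samples in HT55, SW48, DLD1 and HCT15, as a block, the count was 18, with ATF6, EDEM1 and SYVN1 added as higher, beside 25.5% of all genes. Without the RKO libraries it was 6, beside 14.6% of all genes, and without SW948 LRC replicate 4 it was 16, beside 24.4%. Values below are log2 fold changes of LRCs over non-LRCs with their SE and adjusted p from this test.

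**Figure D1:**
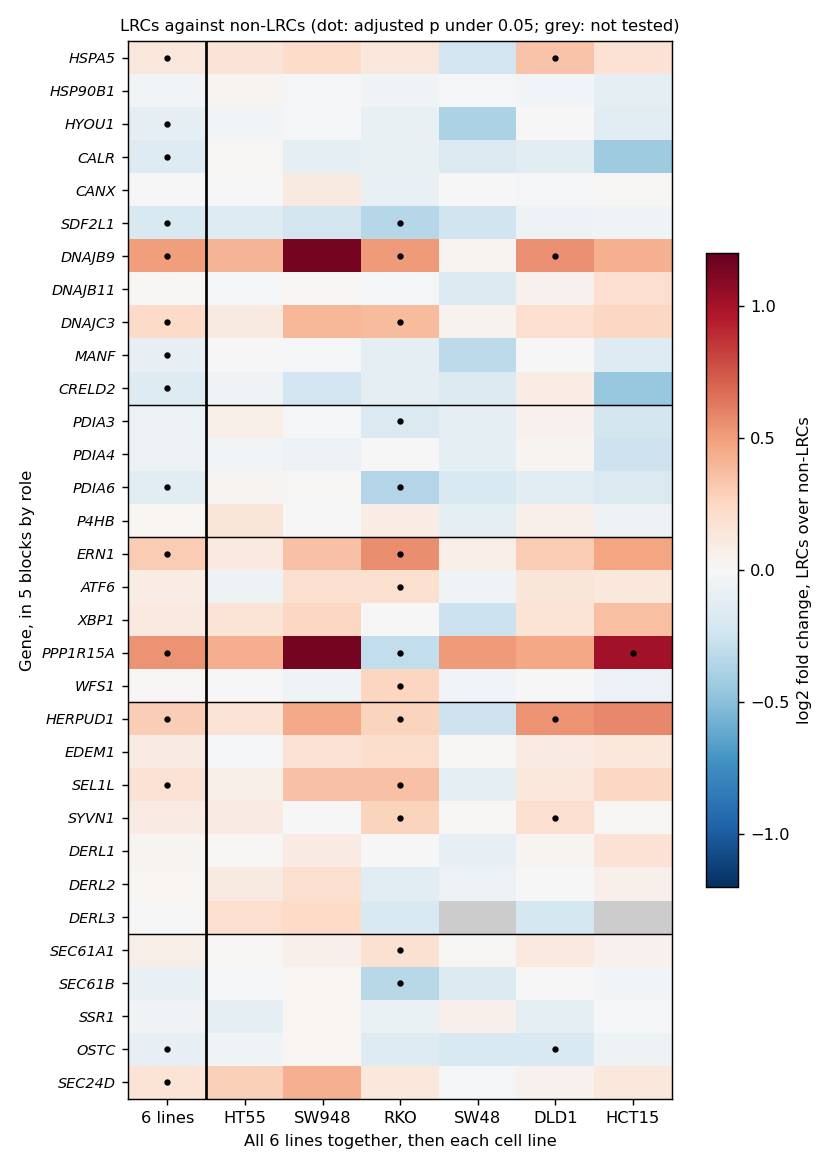
Log2 fold changes of the 32 genes in LRCs over non-LRCs, one row per gene grouped by role and one column per line plus the fit across 6 lines; color gives the log2 fold change, dots mark an adjusted p under 0.05 and gray cells were not tested. PPP1R15A and DNAJB9 have the largest values in the fit across lines, and there is no dot in the columns of HT55, SW948 and SW48.

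Of the 5 genes of the sensor and regulator group 2 passed, both higher in LRCs. The largest difference was that of PPP1R15A, which encodes the subunit that directs protein phosphatase 1 to eIF2α. In HCT15 its 4 non-LRC libraries had 163, 163, 135 and 104 CPM and the 4 LRC libraries 370, 315, 257 and 196 CPM, without overlap. In SW948 the non-LRCs had 36.6, 37.1, 30.1 and 35.7 CPM and the LRCs 81.0, 83.9, 111 and 33.8 CPM, so that 3 LRC libraries lay above every non-LRC library and replicate 4 lay among them. RKO ran the other way, with 265, 284, 232 and 243 CPM in non-LRCs and 233, 225, 180 and 197 CPM in LRCs. Over all lines PPP1R15A was higher in LRCs by 0.54 (SE 0.11, adjusted p = 0.000318), in 17 of 24 pairs of equal replicate number. In SW948 and RKO the replicate numbers were not taken to pair samples. Pairs from these lines, here and below, therefore match libraries by number only. The share of all genes at such pair counts is not given here. ERN1, the sensor IRE1α itself, was higher by 0.30 (SE 0.09, adjusted p = 0.00765) and in 19 of 24 pairs, although it is a low gene with group means of 8.70 to 37.2 CPM, and without replicate 1 in every line it did not pass. ATF6 (0.09, adjusted p = 0.0539), XBP1 (0.11, adjusted p = 0.146) and WFS1 (0.01, adjusted p = 0.905) did not pass.

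Among the 7 genes of ER-associated degradation 2 passed, both higher in LRCs. HERPUD1, a membrane protein that gathers the degradation complex, had 88.0, 93.6, 84.9 and 90.1 CPM in DLD1 non-LRCs and 134, 136, 123 and 123 CPM in LRCs. Its groups did not overlap in DLD1, RKO, SW948 or HCT15, overlapped in HT55, and in SW48 the group means ran the other way, 144 ± 27.7 CPM (SD, n = 4) in non-LRCs and 118 ± 17.9 CPM in LRCs. Across lines HERPUD1 was higher by 0.29 (SE 0.06, adjusted p = 0.000491) and in 20 of 24 pairs. SEL1L, the adaptor of the HRD1 ligase, was higher by 0.17 (SE 0.05, adjusted p = 0.00779), and without replicate 1, SW948 or RKO it did not pass. SYVN1, the HRD1 ligase (0.09, adjusted p = 0.0549), EDEM1, which trims mannose from misfolded glycoproteins (0.10, adjusted p = 0.169), and the derlins DERL1 (0.03, adjusted p = 0.472), DERL2 (0.02, adjusted p = 0.730) and DERL3 (0.00, adjusted p = 0.991) did not pass.

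The 11 chaperones and co-chaperones divided, with 3 higher, 5 lower and 3 that did not pass. DNAJB9 (ERdj4), a BiP co-chaperone, was the member with the smallest p. In RKO it had 20.9, 23.2, 19.6 and 22.1 CPM in non-LRCs and 35, 28.8, 25.7 and 32.7 CPM in LRCs, without overlap. In SW948 it had 13.2, 10.1, 16.7 and 11.9 CPM in non-LRCs and 36.3, 33.1, 33.6 and 13.4 CPM in LRCs, where again only LRC replicate 4 lay among the non-LRCs. In SW48 the means were 29.6 ± 4.74 and 29.4 ± 4.31 CPM (SD, n = 4 each). Across lines DNAJB9 was higher by 0.50 (SE 0.09, adjusted p = 4.11e-05), in 23 of 24 pairs. DNAJC3 (p58IPK), which inhibits PERK and also assists BiP, was higher by 0.23 (SE 0.05, adjusted p = 0.00141) with group means of 35.1 to 58.4 CPM in non-LRCs and 40.2 to 68.6 CPM in LRCs. HSPA5 itself, one of the most abundant of the 32 mRNAs at group means of 601 to 1774 CPM, was higher by 0.13 (SE 0.04, adjusted p = 0.0142) in 19 of 24 pairs. This call was lost without replicate 2, 3 or 4, and without SW948, RKO or DLD1, with an adjusted p of 0.184 without DLD1.

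5 chaperones were lower in LRCs. CALR (calreticulin), the soluble lectin chaperone, had 694, 633, 909 and 893 CPM in HCT15 non-LRCs and 483, 511, 638 and 676 CPM in LRCs, which overlapped. Across lines CALR was lower by 0.16 on the log2 scale (log2 fold change -0.16, SE 0.05, adjusted p = 0.00822) and was higher in only 4 of 24 pairs, and without HCT15 it did not pass. SDF2L1, a component of BiP complexes, stood at -0.18 (SE 0.06, adjusted p = 0.0195), CRELD2, a secreted ER stress protein, at -0.16 (SE 0.06, adjusted p = 0.0413), HYOU1 (ORP150), an exchange factor for BiP, at -0.11 (SE 0.04, adjusted p = 0.0291) and MANF, a factor that leaves the ER under stress, at -0.10 (SE 0.04, adjusted p = 0.0345). These 4 calls were each lost under several alternatives, among them leaving out RKO. CANX (calnexin, 0.00, adjusted p = 0.965), DNAJB11 (0.01, adjusted p = 0.877) and HSP90B1 (GRP94, -0.03, adjusted p = 0.411) did not pass.

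Of the 4 protein disulfide isomerases, which form and shuffle disulfide bonds, only PDIA6 passed. In RKO its non-LRC libraries had 573, 580, 580 and 590 CPM and its LRC libraries 462, 437, 458 and 469 CPM. In DLD1 they had 422, 417, 399 and 430 CPM and 376, 369, 387 and 383 CPM. The populations did not overlap in these 2 lines. Across lines the log2 fold change of PDIA6 was -0.13 (SE 0.03, adjusted p = 0.00172), which did not pass without RKO. PDIA4 (-0.07, adjusted p = 0.108), PDIA3 (-0.07, adjusted p = 0.138) and P4HB (0.02, adjusted p = 0.736) did not pass. In the translocation and export group, SEC24D, a cargo subunit of the COPII coat, was higher by 0.16 (SE 0.05, adjusted p = 0.0185) and in 20 of 24 pairs, while OSTC, a subunit of the oligosaccharyltransferase, stood at -0.10 (SE 0.03, adjusted p = 0.0252). Neither passed without RKO, and of 16 alternatives the call of SEC24D was lost in 5 and that of OSTC in 7. The channel subunits SEC61A1 (0.07, adjusted p = 0.112) and SEC61B (-0.09, adjusted p = 0.139) and the translocon-associated SSR1 (-0.04, adjusted p = 0.408) did not pass.

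**Figure D2:**
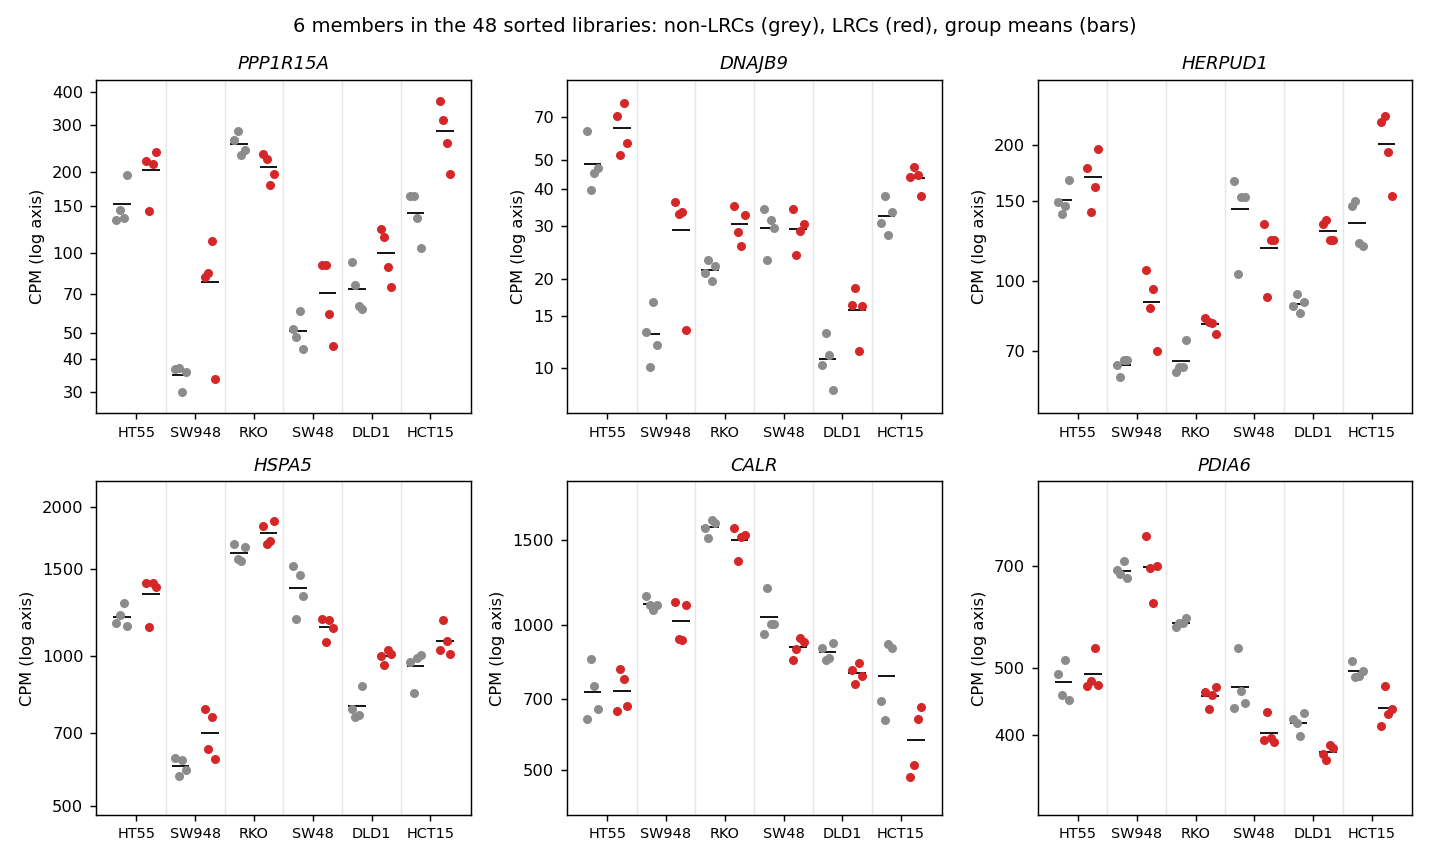
CPM in each of the 48 sorted libraries for PPP1R15A, DNAJB9, HERPUD1, HSPA5, CALR and PDIA6, one panel per gene on a log axis, with 4 gray points for non-LRCs and 4 red points for LRCs in each line and a bar at each mean. The 4 LRC points of PPP1R15A in HCT15 lie above the 4 non-LRC points, and LRC replicate 4 of SW948 lies with the non-LRCs.

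Genes of the same pathway outside the 32 were read from 5 further lists. Beside all list counts below stand 12.2% of all genes higher and 10.7% lower in LRCs. Of 20 genes of the PERK arm and other stress transcription factors 4 were higher and 2 lower, with the stress factor ATF3 at 1.19 (SE 0.15, adjusted p = 2.89e-07) and ATF6B, the relative of ATF6, at -0.26 (SE 0.04, adjusted p = 1.05e-06). Of 21 further folding, glycan and redox genes 1 was higher (the calcium-binding CALU, 0.16, adjusted p = 0.00312) and 3 lower (among them the glucosidase subunit GANAB, -0.13, adjusted p = 0.00622). Of 15 further degradation genes the lectin OS9 (0.10, adjusted p = 0.0230) was higher and the ATPase VCP (-0.12, adjusted p = 0.0204) lower. The 21 further genes of the translocon, signal peptidase and oligosaccharyltransferase held 5 lower and 0 higher, with SPCS3 at -0.18 (adjusted p = 0.00762), SSR3 at -0.25 (adjusted p = 0.0101) and a list median of -0.05. The 15 genes of the COPII coat and its retrieval receptors held 4 higher, led by SEC31A (0.23, adjusted p = 4.44e-05) and SEC24A (0.24, adjusted p = 0.000688), and 1 lower. Of 10 proliferation markers 4 were lower and 0 higher, with a median of -0.29, of 10 immediate early genes 0 passed (edgeR, 2 at an unadjusted p under 0.05), and of 6 goblet and secretory markers tested KLF4 (0.38) and TFF3 (0.47) were higher and 1 was lower. The summed level of the proliferation markers was 1297 to 1438 CPM in DLD1 non-LRCs and 783 to 1159 CPM in LRCs, 1518 to 1633 and 718 to 1276 CPM in RKO, and 1118 to 1901 and 1191 to 2240 CPM in HCT15. Whether these markers had a part in the differences of the ER genes was not tested.

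Many promoters of this group are known to carry the ER stress response element (ERSE) or ERSE-II, bound by ATF6 with NF-Y. RefSeq windows of 300 bases (GRCh38.p14, 250 bases before to 50 after a start) were matched by symbol for 28 of the 32 genes, not for DERL1, DERL3, PDIA3 and SEC24D. They were searched on both strands for ERSE (CCAAT and CCACG with any 9 bases between them), ERSE-II (ATTGG and CCACG with any 1 base between them), TGACGTGG (the core of the XBP1 element) and CCACG alone. CCACG lies inside ERSE and ERSE-II, and its reverse complement inside the XBP1 core. The following are the 250 bases before the start of the 4 genes with an ERSE or ERSE-II and the largest absolute fold change across lines, shown because 1 of them was higher and 3 were lower in LRCs although each holds such letters. Capitals mark the fixed letters of the match.
HERPUD1 (chr16:56931892-56932141, plus strand): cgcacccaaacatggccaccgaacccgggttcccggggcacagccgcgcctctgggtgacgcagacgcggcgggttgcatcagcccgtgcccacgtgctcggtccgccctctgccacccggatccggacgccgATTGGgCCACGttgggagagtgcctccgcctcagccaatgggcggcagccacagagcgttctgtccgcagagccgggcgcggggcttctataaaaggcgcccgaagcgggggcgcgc
SDF2L1 (chr22:21642052-21642301, plus strand): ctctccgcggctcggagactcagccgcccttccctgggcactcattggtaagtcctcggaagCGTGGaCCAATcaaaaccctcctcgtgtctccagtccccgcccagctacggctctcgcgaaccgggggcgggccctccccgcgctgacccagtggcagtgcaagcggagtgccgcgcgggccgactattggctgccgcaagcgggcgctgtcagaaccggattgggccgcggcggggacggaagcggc
CALR (chr19:12938359-12938608, plus strand): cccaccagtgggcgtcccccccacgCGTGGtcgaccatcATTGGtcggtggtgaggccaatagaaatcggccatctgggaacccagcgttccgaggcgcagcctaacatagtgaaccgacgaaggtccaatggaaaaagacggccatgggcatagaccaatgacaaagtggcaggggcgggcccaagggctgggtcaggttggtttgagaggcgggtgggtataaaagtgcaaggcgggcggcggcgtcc
CRELD2 (chr22:49918384-49918633, plus strand): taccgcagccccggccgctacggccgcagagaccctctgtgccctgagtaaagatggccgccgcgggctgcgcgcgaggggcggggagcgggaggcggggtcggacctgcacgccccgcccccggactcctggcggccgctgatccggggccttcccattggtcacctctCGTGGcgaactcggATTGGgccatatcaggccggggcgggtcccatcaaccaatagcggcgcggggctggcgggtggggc

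The match begins 117 bases before the start in HERPUD1, on the strand of the gene, and 188, 225 and 80 bases before it in SDF2L1, CALR and CRELD2, on the opposite strand. ERSE letters were found in 7 members (CALR, CANX, CRELD2, HSP90B1, HSPA5, PDIA6 and XBP1), that is 25% of the 28, and in 0.0769% of all 35116 windows. The 28 members held 35 windows, so these shares of members and of windows, and those that follow, are not in the same unit. ERSE-II letters were found in 3 (HERPUD1, HYOU1 and SDF2L1), or 10.7%, against 0.0541% of windows. The XBP1 core was found in HYOU1 alone, 3.57% against 0.729%, and CCACG in 22 members, 78.6% against 38.1%. Of the 10 members with ERSE or ERSE-II, 2 were higher and 5 lower in LRCs across lines. Of the 18 with a window but neither element, 5 were higher (DNAJB9, DNAJC3, ERN1, PPP1R15A and SEL1L) and 2 lower (MANF and OSTC). Beside both stand 12.2% of all genes higher and 10.7% lower. Among members with an element, CRELD2 lost its call in 10, HYOU1 in 8, HSPA5 in 6 and SDF2L1 in 4 of 16 alternatives. Among those without, MANF lost it in 9, OSTC in 7 and SEL1L in 3. Whether the elements had a part in these differences was not tested. A match describes letters only.

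**Figure D3:**
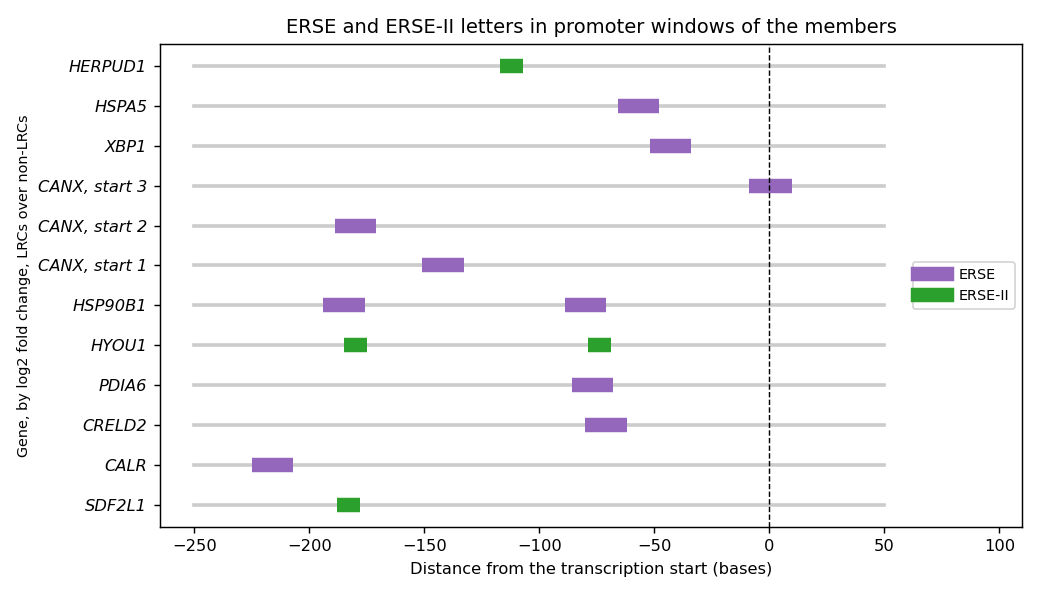
Positions of ERSE (purple) and ERSE-II (green) letters in the promoter windows of the 10 members that hold one, drawn as distance in bases from the transcription start, with genes ordered by log2 fold change in LRCs. Genes with several annotated starts have one row per start, and HERPUD1 stands at the higher end of the order and SDF2L1 at the lower end.

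The lines were then compared in their response. The difference of the LRC effect between lines passed for 4 of 32 members (12 groups of 4, F test of the interaction), beside 14.3% of all genes: HERPUD1 (adjusted p = 0.00443), HSPA5 (adjusted p = 0.0133), PPP1R15A (adjusted p = 0.0133) and PDIA6 (adjusted p = 0.0287). For PPP1R15A the log2 fold changes were 1.15 (SE 0.25) in SW948, 1.01 (SE 0.19) in HCT15, 0.51 (SE 0.21) in SW48, 0.46 (SE 0.16) in DLD1, 0.43 (SE 0.17) in HT55 and -0.29 (SE 0.09) in RKO. For HERPUD1 they ran from 0.58 (SE 0.13) in HCT15 and 0.54 (SE 0.05) in DLD1 to -0.25 (SE 0.15) in SW48. HSPA5 ranged from 0.35 (SE 0.06) in DLD1 to -0.23 (SE 0.10) in SW48, and PDIA6 from 0.04 (SE 0.08) in HT55 to -0.35 (SE 0.06) in RKO. The count was 1 without RKO (1.02% of all genes), 2 without SW48 (16.7%), 0 without replicate 1 (3.20%) and 0 without replicate 3 (4.88%) in every line, and 5 without SW948 LRC replicate 4 (18.1%). With the replicate block it was 11, beside 33.6% of all genes.

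Within single lines the number of members past the threshold ran from 0 to 14, beside shares of all genes called that ran from 0% to 41.5%. In RKO, 14 of 32 passed, 9 higher and 5 lower, beside 41.5% of all genes, 20.4% higher and 21% lower. Its 3 largest were ERN1, with 10.4, 11.3, 4.74 and 8.42 CPM in non-LRCs and 13.3, 10.4, 14.9 and 13 CPM in LRCs (0.55, SE 0.19, adjusted p = 0.0259), DNAJB9 (values above, 0.51, SE 0.10, adjusted p = 0.000792), and DNAJC3, with 43.2, 48.9, 29.5 and 38.5 CPM and 46.5, 45.3, 56.7 and 59.4 CPM (0.38, SE 0.12, adjusted p = 0.0229). The populations overlapped for ERN1 and DNAJC3 and not for DNAJB9, and the calls of ERN1 and DNAJC3 were each lost without non-LRC replicate 3 or 4 or LRC replicate 3 or 4, that of ERN1 also without LRC replicate 1. SEL1L (0.36), HERPUD1 (0.27), SYVN1 (0.27), WFS1 (0.26), ATF6 (0.20) and SEC61A1 (0.18) were also higher, and PDIA6 (-0.35), SDF2L1 (-0.34), SEC61B (-0.34), PPP1R15A (-0.29) and PDIA3 (-0.18) lower. Without non-LRC replicate 3 or non-LRC replicate 4 the count was 7, beside 36.6% and 34% of all genes, and without LRC replicate 3 it was 9, beside 40.5%.

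In DLD1, 5 of 32 passed, 4 higher and 1 lower, beside 14.6% of all genes, 6.67% higher and 7.89% lower. DNAJB9 had 10.2, 13.1, 11 and 8.45 CPM in non-LRCs and 16.3, 18.6, 11.4 and 16.1 CPM in LRCs, of which only LRC replicate 3 lay among the non-LRCs (0.55, SE 0.16, adjusted p = 0.0434). HERPUD1 (values above) was higher by 0.54 (SE 0.05, adjusted p = 0.000441). HSPA5 had 784, 754, 762 and 871 CPM and 1000, 962, 1029 and 1008 CPM, without overlap (0.35, SE 0.06, adjusted p = 0.00518). SYVN1 (0.19, adjusted p = 0.0444) was higher and OSTC (-0.18, adjusted p = 0.0228) lower. Leaving out single libraries gave 2 to 4 members, with 2 without non-LRC replicate 1, non-LRC replicate 3 or LRC replicate 2 and 3 without LRC replicate 1, and DNAJB9 kept its call in 2 of these 8 fits. The replicate numbers of DLD1 paired the samples, and with the block 14 passed, 11 higher and 3 lower, beside 33.8% of all genes (17.1% higher and 16.6% lower), with PPP1R15A at 0.46 (SE 0.05, adjusted p = 1.02e-07), XBP1 at 0.17 (adjusted p = 0.00283) and ERN1 at 0.31 (adjusted p = 0.0118) among those added.

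In HCT15, 1 of 31 members tested passed, beside 0.977% of all genes. This was PPP1R15A (1.01, SE 0.19, adjusted p = 0.0447), whose call was lost in 7 of the 8 fits without 1 library, all but that without LRC replicate 4. The replicate numbers paired the samples here too, and with the block 10 passed, 7 higher and 3 lower, beside 21.3% of all genes, 11.3% higher and 10% lower. PPP1R15A stood at 1.0 (SE 0.06, adjusted p = 4.76e-08), HERPUD1 at 0.57 (SE 0.06, adjusted p = 1.28e-05), ERN1 at 0.51, DNAJB9 at 0.43, XBP1 at 0.36, DNAJC3 at 0.25 and SEL1L at 0.25. The 3 that were lower were CRELD2 (-0.45, adjusted p = 0.000253), CALR (-0.43, adjusted p = 0.000574) and PDIA4 (-0.25, adjusted p = 0.0226).

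In SW48, 0 of 31 members passed in edgeR, beside 0.796% of all genes, with 5 at an unadjusted p under 0.05 and 2 in DESeq2. For the counts at an unadjusted p and in DESeq2 the share of all genes is not given here. The values leaned below 0: 22 of 31 were negative with a median of -0.11, beside -0.01 over all genes. HYOU1 had 360, 279, 374 and 371 CPM in non-LRCs and 274, 223, 274 and 263 CPM in LRCs, without overlap. HSPA5 had 1518, 1190, 1461 and 1320 CPM in non-LRCs and 1189, 1069, 1180 and 1138 CPM in LRCs, where 1190 and 1189 CPM nearly met. Replicate numbers paired the samples in SW48, and with the block 4 members, all lower, passed beside 9.69% of all genes (4.33% lower): HYOU1 (-0.38, SE 0.06, adjusted p = 0.00408), MANF (-0.31, adjusted p = 0.0146), HERPUD1 (-0.24, adjusted p = 0.0282) and HSPA5 (-0.22, adjusted p = 0.0469). Non-LRC replicate 2 of SW48 stood apart from the other 3 for several members, with ERN1 at 15.5 CPM against 32.1 to 36.3 CPM.

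In SW948, 0 of 32 passed in edgeR, beside 0% of all genes, with 11 at an unadjusted p under 0.05 and 4 in DESeq2. Without LRC replicate 4, the library that lay with the non-LRCs, the count was 10, beside 14.5% of all genes. In HT55, 0 of 32 passed in edgeR, beside 0% of all genes, with 2 at an unadjusted p under 0.05 and 0 in DESeq2. The shares of 0% hold for the adjusted edgeR test alone. For the counts of both lines at an unadjusted p and in DESeq2 the share of all genes is not given here. The HT55 values of PPP1R15A were 133, 145, 135 and 195 CPM in non-LRCs and 221, 143, 215 and 239 CPM in LRCs, with LRC replicate 2 among the non-LRCs. This library was among those nearest to another group.

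Levels in non-LRCs were compared between the 6 lines. All 32 members differed, which is close to the share of all genes, 98.3%. Among the members with a mean of at least 1 CPM in every line, those with the widest range of line means were WFS1, PPP1R15A, EDEM1, DNAJB9, ERN1 and CRELD2.

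**Figure D4:**
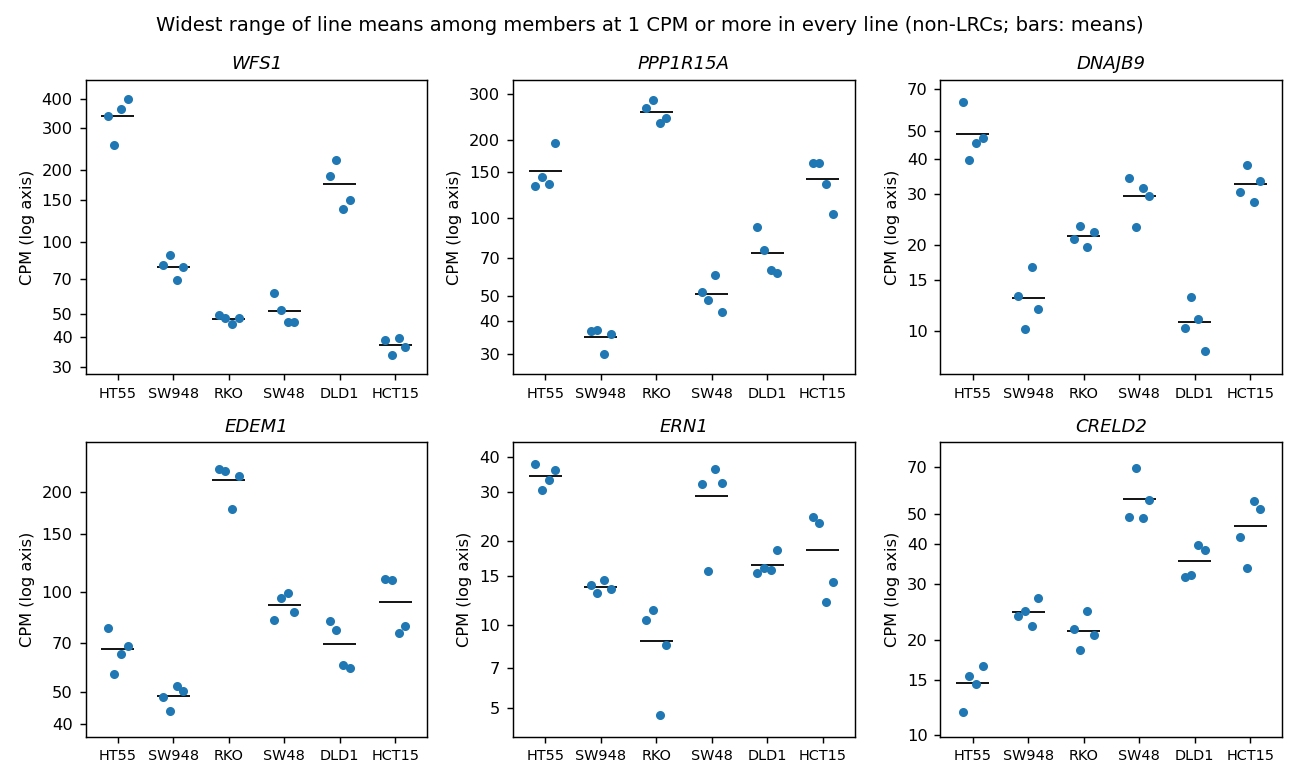
CPM of members in the 4 non-LRC libraries of each of the 6 lines on a log axis, with 1 point per library, for the 6 members with the widest range of line means among those at 1 CPM or more in every line (DERL3 is left out). WFS1 lies highest in HT55 and DLD1, and PPP1R15A and EDEM1 lie highest in RKO.

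WFS1, the ER protein lost in Wolfram syndrome, averaged 339 ± 61 CPM (SD, n = 4 throughout) in HT55, 175 ± 38 in DLD1, 79.0 ± 7.67 in SW948, 51.5 ± 7.20 in SW48, 47.8 ± 1.83 in RKO and 37.1 ± 2.80 in HCT15, and SW48 and RKO overlapped. Against the mean of the other 5 lines, HT55 was higher by 2.39 (SE 0.09, adjusted p = 1.42e-18) on the log2 scale. PPP1R15A ran in a different order, 256 ± 23.5 CPM in RKO, 152 ± 29.4 in HT55, 141 ± 28.1 in HCT15, 73.1 ± 14.2 in DLD1, 51 ± 7.18 in SW48 and 34.9 ± 3.26 in SW948, and HT55 overlapped HCT15. RKO was above the other lines by 1.71 (SE 0.10, adjusted p = 2.89e-14) and SW948 below them at -1.72 (SE 0.13, adjusted p = 8.30e-12). RKO had the highest PPP1R15A in non-LRCs and was the only line whose LRCs had a lower mean.

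EDEM1 averaged 218 ± 26.8 CPM in RKO, 93.1 ± 18.5 in HCT15, 91.0 ± 8.03 in SW48, 69.4 ± 11.5 in DLD1, 67.1 ± 8.87 in HT55 and 48.6 ± 3.55 in SW948, and HCT15 overlapped SW48 and DLD1 overlapped HT55. RKO was above the other lines by 1.58 (SE 0.09, adjusted p = 8.28e-15). ERN1, by contrast, was lowest in RKO at 8.70 ± 2.90 CPM, followed by SW948 (13.7 ± 0.632), DLD1 (16.4 ± 1.48), HCT15 (18.5 ± 6.22), SW48 (29 ± 9.21) and HT55 (34.3 ± 3.23), with RKO at -1.28 (SE 0.20, adjusted p = 2.19e-06). The ranges of DLD1, HCT15, SW48 and HT55 each overlapped the next. XBP1, the mRNA that IRE1α splices, was also lowest in RKO, 65.0 ± 3.40 CPM against line means of 112 to 174 CPM in the others. RKO combined the highest EDEM1 and PPP1R15A with the lowest ERN1 and XBP1 of the 6 lines.

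DNAJB9 averaged 48.7 ± 9.98 CPM in HT55, 32.5 ± 4.23 in HCT15, 29.6 ± 4.74 in SW48, 21.4 ± 1.51 in RKO, 13 ± 2.80 in SW948 and 10.7 ± 1.93 in DLD1, where HCT15 overlapped SW48, SW48 overlapped RKO and SW948 overlapped DLD1. HT55 was above the other lines by 1.34 (SE 0.11, adjusted p = 1.12e-11) and DLD1 below them at -1.30 (SE 0.13, adjusted p = 3.57e-09). CRELD2 averaged 55.5 ± 9.99 CPM in SW48, 45.6 ± 9.63 in HCT15, 35.4 ± 4.18 in DLD1, 24.4 ± 2.09 in SW948, 21.4 ± 2.48 in RKO and 14.6 ± 2.0 in HT55, and each neighbor down to RKO overlapped the next except DLD1 and SW948. DERL3 was the one member under 1 CPM in some lines, and its line means spanned a wider range than those above. It had 0 counts in all 8 SW48 libraries, which allows up to 0.179 to 0.250 CPM at 3 counts in a library, and averaged 0.0585 CPM in HCT15, 0.774 in DLD1, 1.35 in HT55, 1.90 in RKO and 2.29 in SW948. SW948 non-LRCs thus had at least 10.1-fold more DERL3 than SW48 non-LRCs. HSP90B1 (GRP94), which varied least between lines, had line means between 1372 and 1634 CPM. Divided by the length of the annotated exons, the level of CALR was the highest of the 32 in the lines, and those of DERL3 and ERN1 were the lowest.

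The unsorted controls addressed the effect of time in culture and of the dye. DERL3 was too low to test, leaving 31 members. In the DMSO libraries, 6 of 31 differed between day 1 and the later day, 4 higher and 2 lower on the later day, beside 25.5% of all genes, 12.4% higher and 13.1% lower. SYVN1 had 149, 146, 133 and 94.1 CPM on day 1 and 71.6, 74.7, 87.8 and 106 CPM later, so that day 1 replicate 4 lay among the later libraries (-0.60, SE 0.15, adjusted p = 0.0139). SEL1L had 59.1, 55.2, 73.4 and 98.5 CPM and later 130, 96.2, 107 and 85.4 CPM (0.56, SE 0.16, adjusted p = 0.0222). DNAJB11 had 144, 155, 136 and 81.0 CPM and later 91.8, 90.7, 82.8 and 89.9 CPM (-0.52, SE 0.16, adjusted p = 0.0315). In each of these 3 genes, day 1 replicate 4 was the library out of place. CANX (0.45), PDIA3 (0.43) and ATF6 (0.38) were higher on the later day. Without day 1 replicate 4 the count was 10, beside 42.1% of all genes. It was 0 without day 1 replicate 1 or 2, 1 without day 1 replicate 3 or later replicate 1, and 3 without later replicate 2. With replicates 1 and 2 alone it was 16, beside 57.8% of all genes, and with replicates 3 and 4 alone 0, beside 0% (edgeR, 2 at an unadjusted p under 0.05).

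In the CFSE-labeled libraries, 13 of 31 members differed over time, 9 higher and 4 lower on the later day, beside 39.3% of all genes, 20.2% higher and 19.1% lower. PPP1R15A had 555, 554, 170 and 172 CPM on day 1 and 93.5, 85.6, 66.4 and 77.7 CPM later, without overlap (-2.23, SE 0.40, adjusted p = 0.000762). All 4 disulfide isomerases were higher on the later day. PDIA6 had 391, 417, 466 and 478 CPM on day 1 and 823, 903, 684 and 731 CPM later (0.80, SE 0.13, adjusted p = 0.000326). PDIA4 had 318, 350, 420 and 386 CPM and later 673, 676, 581 and 655 CPM (0.77, SE 0.10, adjusted p = 0.000129). Neither overlapped between days, and PDIA3 (0.58) and P4HB (0.45) were higher too. The lectin chaperones CALR (0.67) and CANX (0.64), the sensor ATF6 (0.60), EDEM1 (0.39) and HSP90B1 (0.29) were higher, while ERN1 (-0.76), SYVN1 (-0.65) and DNAJB11 (-0.47) were lower. With replicates 1 and 2 alone the count was 19, beside 55.9% of all genes, and with replicates 3 and 4 alone it was 5, beside 13.7%, with PPP1R15A at -1.34, CALR at 0.55, PDIA4 at 0.53, PDIA6 at 0.50 and PDIA3 at 0.45.

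**Figure D5:**
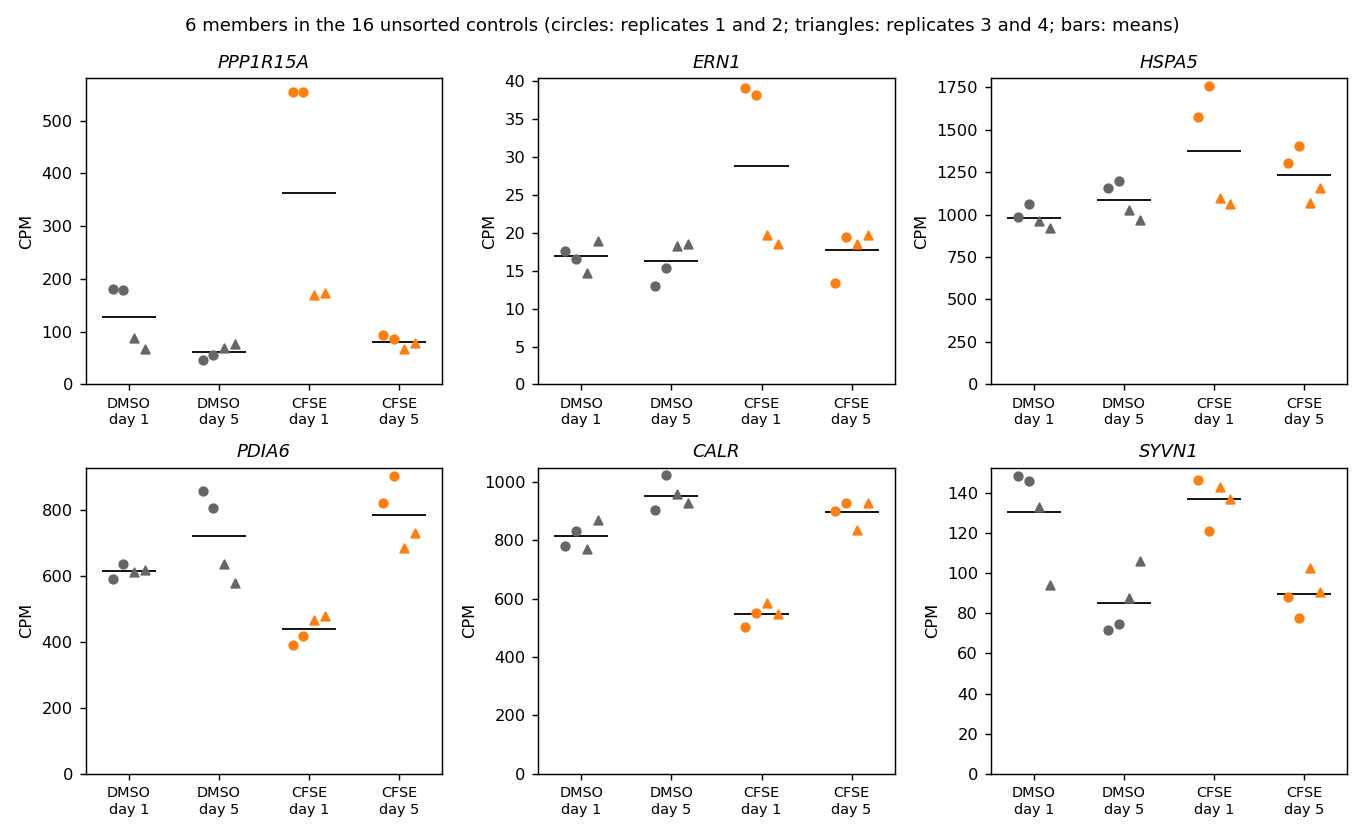
CPM in each of the 16 control libraries labeled DLD1 for members named in the text, one panel per gene, with DMSO and CFSE on day 1 and on the later day and 4 points per group. On day 1 the PPP1R15A of CFSE replicates 1 and 2 lies at 555 and 554 CPM and that of replicates 3 and 4 at 170 and 172 CPM.

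The dye was compared on each day. On day 1, 8 of 31 members differed between CFSE and DMSO, 4 higher and 4 lower with the dye, beside 21.8% of all genes, 9.73% higher and 12% lower. PPP1R15A in DMSO libraries was 181, 179, 87.1 and 66.6 CPM, so that DMSO replicates 1 and 2 lay just above CFSE replicates 3 and 4 (1.56, SE 0.39, adjusted p = 0.0116). ERN1 had 17.6, 16.5, 14.7 and 18.9 CPM with DMSO and 39.1, 38.2, 19.8 and 18.5 CPM with CFSE (0.82, SE 0.24, adjusted p = 0.0213). DNAJC3 had 48, 45.9, 53.9 and 58.9 CPM with DMSO and 88.1, 92.5, 63 and 61.1 CPM with CFSE (0.61, SE 0.15, adjusted p = 0.00997). For all 3 genes CFSE replicates 1 and 2 were well above replicates 3 and 4. HSPA5 (0.53, adjusted p = 0.0271) was higher as well, and CALR (-0.53), PDIA4 (-0.53), CRELD2 (-0.47) and PDIA6 (-0.45) were lower. CALR had 779, 833, 771 and 870 CPM with DMSO and 503, 552, 585 and 549 CPM with CFSE, without overlap and with no gap between replicates 1 and 2 and replicates 3 and 4. Without DMSO replicate 4 the count was 10, beside 18% of all genes, and HSPA5 did not pass. Without CFSE replicate 1 or 2 the count was 3, beside 9.41% and 9.86% of all genes, and the call of PPP1R15A was lost. With replicates 1 and 2 alone it was 18, beside 48.8%, and with replicates 3 and 4 alone it was 2, beside 4.86%, PPP1R15A (1.19) and CALR (-0.50).

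On the later day 0 of 31 members differed with the dye in edgeR, beside 5.13% of all genes, with 3 at an unadjusted p under 0.05 and 0 in DESeq2. The difference of the time effect between CFSE and DMSO passed for 0 of 31 in edgeR, beside 0.999% of all genes, with 12 at an unadjusted p under 0.05 and 2 in DESeq2. For the counts at an unadjusted p and in DESeq2 the share of all genes is not given here. Without DMSO day 1 replicate 4 it passed for 4 (CRELD2, MANF, PDIA4 and SEL1L), beside 6.09% of all genes. The time and dye comparisons share their samples, so that they are not independent of each other.

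Over time in CFSE-labeled libraries, 20.2% of all genes were higher and 19.1% lower on the later day. There, of 21 further folding genes 9 were higher and 0 lower, among them the glucosidase subunit GANAB (0.80, adjusted p = 0.000298) and the BiP exchange factor SIL1 (0.95, adjusted p = 0.000354). Of 21 genes of the translocon, signal peptidase and oligosaccharyltransferase 10 were higher and 0 lower, among them RPN2 (0.71) and STT3A (0.55), of 15 COPII and retrieval genes 7 were higher and 1 lower, led by the KDEL receptor KDELR3 (1.45), and of 15 further degradation genes 3 were higher and 2 lower. Of 19 PERK arm genes tested 4 were higher and 5 lower, with DDIT3 (CHOP) at -1.79 (adjusted p = 0.000486) and TMBIM6 at 0.74. In DMSO libraries the folding list held 3 higher and 0 lower, the translocon list 5 and 0, the COPII list 4 and 1, the degradation list 4 and 2, and the PERK arm list 3 and 5, with DDIT3 at -1.44 (adjusted p = 0.00754). Beside these stand 12.4% of all genes higher and 13.1% lower over time in DMSO. The immediate early genes, which respond to handling and growth factors within minutes, changed alongside PPP1R15A. All 10 were lower on the later day with CFSE (median -1.78), 2 of 10 with DMSO, and 8 of 10 were higher with the dye on day 1 (median 1.42). For all genes these shares were 19.1% with CFSE, 13.1% with DMSO and 9.73% with the dye on day 1. Their summed level was 1110 to 4953 CPM in CFSE day 1 libraries, 554 to 1424 CPM in DMSO day 1 libraries, 639 to 936 CPM in later CFSE libraries and 552 to 695 CPM in later DMSO libraries. Their part in the differences of the ER genes was not tested.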

How the data were processed

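RNA was extracted with the RNAeasy Micro kit, made into libraries with Truseq and sequenced as 50-bp single-end reads. The authors aligned reads to hg19 and deposited raw read counts per Ensembl gene, 1 file per library; the submitters' processing notes name TopHat, HTSeq and DESeq, and their versions are not given in the sources used here. Reads outside genes (5.19% to 14.8% of counts per library) were left out of library sizes, and symbols matched 47098 of 54127 gene IDs (87.0%). Strand use in counting was not stated, so overlapping and antisense genes cannot be told apart.

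Libraries were grouped by the sample labels. Counts were tested in edgeR 4.0.16 (R 4.3.3) with its quasi-likelihood test and TMM scaling, keeping genes that reached 10 counts in 4 or more libraries of the fit, with Benjamini-Hochberg adjustment over all genes tested and a threshold of 0.05. CPM use the TMM library sizes of the 48 sorted or the 16 control libraries. The comparison across lines has line as a term, and single lines were fitted alone. SE is the log2 fold change divided by the root of its F statistic. DESeq2 1.42.0, other scalings, no filter, a replicate block and leaving out libraries were tried, and the closing section gives their effect. The fit was tested on simulated data.

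Replicate numbers are shared between groups in the labels. Their deviations correlated in every pair of HT55 (lowest r 0.141), SW48 (0.129), DLD1 (0.155), HCT15 (0.241) and the 2 CFSE control groups (0.157), so the numbers were taken to pair samples there.

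The genes, the further lists and the rule for named genes were chosen with earlier results of these data known. The rule gives per-sample values for the 3 members past the threshold with the largest change in each line, time or dye comparison, the 6 with the widest range between lines among those at 1 CPM or more in every line, and in other lists the 2 genes with the smallest p. Members given beyond it were chosen after their values were seen. FCGBP and PECAM1 of the marker lists were not found. Enteroendocrine markers had 2 genes tested and 0 called (edgeR, 1 at an unadjusted p under 0.05), 1 of 7 epithelial markers (VIL1) was lower and 1 of 3 non-epithelial markers tested (CD68) higher in LRCs. Of all genes, 12.2% were higher and 10.7% lower in that comparison across lines. Counting errors and limits at 0 counts cover counting only. Promoter windows and their coordinates are those of RefSeq on GRCh38.p14, not the build of the counts, and nothing was converted between builds.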

Additional observations from a re-analysis of the deposited data

Results flagged for a closer look

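The LRC effect differed between the 6 lines for 4 of 32 members, by the F test of the interaction in edgeR: HERPUD1 (adjusted p = 0.00443), HSPA5 (adjusted p = 0.0133), PPP1R15A (adjusted p = 0.0133) and PDIA6 (adjusted p = 0.0287). This share lies beside 14.3% of all genes, and the count was 0 without replicate 1 and 0 without replicate 3 in every line. Their values in each line are given above.

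In 29 of 512 groups of 4 libraries (32 genes in 16 groups, 5.66%), 1 library lay far from the other 3 by Dixon's criterion. Chance flags about 1 in 20 such groups. In DLD1 non-LRCs replicate 2 was high for DERL3 (1.15 CPM) and SEC24D (57.1 CPM). In HCT15 non-LRCs PDIA4 was at 415 CPM in replicate 2 and DERL2 at 28.1 CPM in replicate 3. In HT55 non-LRCs DERL1 was at 99.6 CPM in replicate 1, and DERL3 at 2.20 CPM and SEC61A1 at 378 CPM in replicate 2. In HT55 LRCs replicate 2 held HSPA5 at 1148 CPM and SEC24D at 23.1 CPM, and replicate 3 held PDIA6 at 534 CPM. In RKO non-LRCs PDIA3 was at 867 CPM in replicate 2 and HERPUD1 at 74.0 CPM in replicate 4. In SW48 non-LRCs replicate 2 held HYOU1 at 279 CPM and OSTC at 50.9 CPM, and replicate 4 held PDIA3 at 707 CPM. In SW48 LRCs replicate 2 held CANX at 1164 CPM and PDIA6 at 433 CPM. In SW948 non-LRCs SEC61B was at 72.1 CPM in replicate 2 and OSTC at 46.3 CPM in replicate 3. In SW948 LRCs replicate 4 held DNAJB9 at 13.4 CPM and HYOU1 at 335 CPM, replicate 1 held P4HB at 1108 CPM and SEC61B at 78.0 CPM, and replicate 2 held DERL3 at 2.85 CPM. In the controls, CFSE day 1 had WFS1 at 34.3 CPM in replicate 1 and DERL3 at 0.0704 CPM in replicate 2, the later CFSE group had SEL1L at 71.1 CPM in replicate 1, and the later DMSO group had ATF6 at 107 CPM in replicate 4 and DERL3 at 0.0756 CPM in replicate 1.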

How the results depend on the processing

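Counts below are members past the adjusted p of 0.05. Shares of all genes are given above for some of them, and a count without such a share cannot be set against all genes. Across lines, the count of 15 was 6 without RKO and ranged from 8 to 16 when libraries were left out. DNAJB9, PPP1R15A, HERPUD1 and DNAJC3 passed in all 16 alternatives. For the difference between lines, 4 became 8 with library sizes alone, 11 with the replicate block, 1 without RKO and 2 without SW48, with 0 to 7 when replicates were left out. One fit to all 48 samples gave 3 in SW948, 6 in RKO, 2 in SW48, 2 in DLD1 and 5 in HCT15. DESeq2 gave 4 in SW948, 2 in SW48, 3 in HCT15 and 2 for time by dye. No filter gave 6 in SW948 and 2 in HCT15, and library sizes alone 3 in DLD1. The replicate block gave 6 in SW948, 4 in SW48, 14 in DLD1, 10 in HCT15, 13 for the dye on day 1 and 2 on the later day. Leaving out single libraries gave 0 in HT55, 0 to 10 in SW948, 7 to 14 in RKO, 0 to 1 in SW48, 2 to 4 in DLD1, 0 to 2 in HCT15, 0 to 10 for time in DMSO, 10 to 13 for time in CFSE, 3 to 12 for the dye on day 1, 0 to 1 on the later day and 0 to 4 for time by dye. Replicates 1 and 2 alone gave 16 for time in DMSO, 18 for the dye on day 1, 6 on the later day and 16 for time by dye, and replicates 3 and 4 alone gave 0 for time in DMSO, 5 for time in CFSE and 2 for the dye on day 1. The causes were not tested. Replicate subsets, and fits without SW948 LRC replicate 4, were chosen after seeing the data, and a lone pair was assumed to vary like the other groups. The block moved no other count by over 1.5 times. In SW948 (lowest r 0.0104), RKO (-0.0691) and the other control pairs the lowest r was below those of the groups taken as paired. The replicate numbers were not taken to pair samples there. A low r does not show that the samples were unpaired. Of 545 alternatives for 31 values of named members, 440 kept direction and call, 105 kept the direction and lost the call, and 0 reversed.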
